A study of Homo sapiens with 9 samples.

Results

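The core circadian clock genes CLOCK, BMAL1, PER1, PER2, PER3, CRY1, CRY2, NR1D1, NR1D2 and DBP were followed in HEK293 cells after transfection with 2 targeting siRNAs. The members were taken by gene symbol: 11 of 22011 array probe sets carry 1 of these 10 names, out of 18033 gene symbols in the annotation. BMAL1 is the gene formerly called ARNTL. Of the 11 probe sets, 8 name a single gene. The other 3 are shared: 2 name both NR1D1 and THRA, its neighbour that encodes a thyroid hormone receptor, and 1 names both PER3 and UTS2, which encodes a peptide hormone. No probe set here names NR1D1 or PER3 alone, and strand and position were not used to tell the genes apart.

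HEK293 is a line of human embryonic kidney cells transformed with adenovirus DNA. The groups were cells transfected with siRNA against DBC1 (siDBC1), with siRNA against ZNF326 (siZNF326) and with control siRNA (siCTR), each measured on 3 arrays 48 h after transfection, 9 arrays in all. DBC1 is the protein of CCAR2, and ZNF326 (ZIRD) is its partner in the DBIRD complex, which the study examined for roles in gene expression and splicing. All groups were the same line in serum-containing medium, all were transfected and all were taken at 1 time, so the level at that time was measured and rhythm was not. The labels give replicate numbers and state independent experiments. The deposited values are log2 expression values, so a difference of 1 is a doubling.

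The targeted transcripts were read first. CCAR2 (probe set 3089597) read 6.50, 6.54 and 6.65 on the siDBC1 arrays, against 7.67, 7.67 and 7.84 on the siCTR arrays, and fell by 1.16 on the log2 scale (SE 0.079, limma adjusted p = 0.0116). Leaving out 1 array kept the change between −1.21 and −1.11, and the limma adjusted p passed 0.05 without siCTR replicate 2 (0.0843), siDBC1 replicate 1 (0.122), siDBC1 replicate 2 (0.0544) or siZNF326 replicate 3 (0.0629). It was 0.253 in a fit of siDBC1 and siCTR alone. ZNF326 (2346074) read 6.12, 5.56 and 5.81 on the arrays labelled siZNF326, against 5.25, 5.64 and 5.76 on the siCTR arrays, a difference of 0.28 (SE 0.39, limma adjusted p = 0.851). The depletion named by that label was therefore not seen in the transcript, and siZNF326 stands below for the arrays labelled so. ZNF326 read 6.24, 5.64 and 7.32 on the siDBC1 arrays, overlapping siCTR. That difference was 0.85 (SE 0.39, limma adjusted p = 0.844), and 0.39 without siDBC1 replicate 3. In siZNF326 it lay 0.57 below siDBC1 (limma adjusted p = 0.769). CCAR2 read 8.01, 7.95 and 7.99 on the siZNF326 arrays, wholly above siCTR by 0.26 (SE 0.079, limma adjusted p = 0.377), where 12.9% of all probe sets were. Array medians ran from 5.58 to 5.89 in siDBC1, from 5.76 to 5.90 in siZNF326 and from 5.67 to 5.78 in siCTR. Markers were read as percentiles of the mean among all probe sets, a rough guide since probe sets differ in response. Of the markers listed for HEK293 or epithelial cells, KRT8 (3455516), KRT18 and CDH2 lay at percentiles 98.2, 92.4 and 92.2 and EPCAM at 40.4. The neuronal markers NEFL, NEFM and INA lay at 92.1, 68.8 and 71.8, and the blood markers PTPRC, CD3E and HBB (3360401) at 4.77, 13.8 and 25.1. The fibroblast markers COL1A1, COL1A2 (3013054), DCN and LUM lay at 67.0, 43.0, 10.7 and 17.9. The liver markers ALB and APOA1 lay at 10.65 and 52.6. NEFM averaged 6.62 ± 0.53 in siDBC1 and 7.56 ± 0.53 in siZNF326, against 5.84 ± 0.33 in siCTR, and INA 6.32 ± 0.43 in siDBC1 and 7.54 ± 0.14 in siZNF326, against 6.58 ± 0.20 in siCTR (SD, n = 3). The part of these markers in the differences of siZNF326 was not tested.

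The mammalian clock is a transcriptional feedback loop. The proteins CLOCK and BMAL1 pair and switch on genes through DNA elements called E-boxes, among them the PER and CRY genes, whose proteins return to the nucleus and inhibit the pair. A second loop runs through the nuclear receptors REV-ERB alpha (NR1D1) and REV-ERB beta (NR1D2), which repress BMAL1 at elements called ROREs, and DBP acts at D-boxes. CCAR2 protein is known to bind REV-ERB alpha, so the clock genes are read here beside the fall of CCAR2.

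No clock gene probe set passed the test in any of the 3 comparisons. The limma fit over all probe sets, at an adjusted p below 0.05, called 0 of 11 members in siDBC1 against siCTR, where it called 0.0363% of all probe sets. It called 0 of 11 in siZNF326 against siCTR, where 0.15% of all were called, and 0 of 11 in siZNF326 against siDBC1, where 0.00909% were called. At an unadjusted p below 0.05, limma gave 1 member in siDBC1 against siCTR (PER3/UTS2; 9.09% of members against 6.18% of all probe sets), 1 in siZNF326 against siCTR (CLOCK; 9.09% against 8.65%) and 2 in siZNF326 against siDBC1 (CLOCK and NR1D2; 18.2% against 7.31%). The members' median difference was 0.027 in siDBC1 and 0.12 in siZNF326, both against siCTR, beside 0.014 and 0.032 over all probe sets. Leaving out 1 array moved the siDBC1 median between 0.0036 (without siDBC1 replicate 3) and 0.053 (without siDBC1 replicate 2), and the siZNF326 median between 0.033 (without siZNF326 replicate 1) and 0.18 (without siCTR replicate 3). With each array centred on its median it was 0.013 in siDBC1 and 0.032 in siZNF326, and after quantile normalization the siZNF326 median turned to −0.026. The shares of members past an unadjusted p lie near those of all probe sets in both comparisons with siCTR. The comparisons share arrays: siCTR stands in the first 2 and siZNF326 in the last 2.

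**Figure D1:**
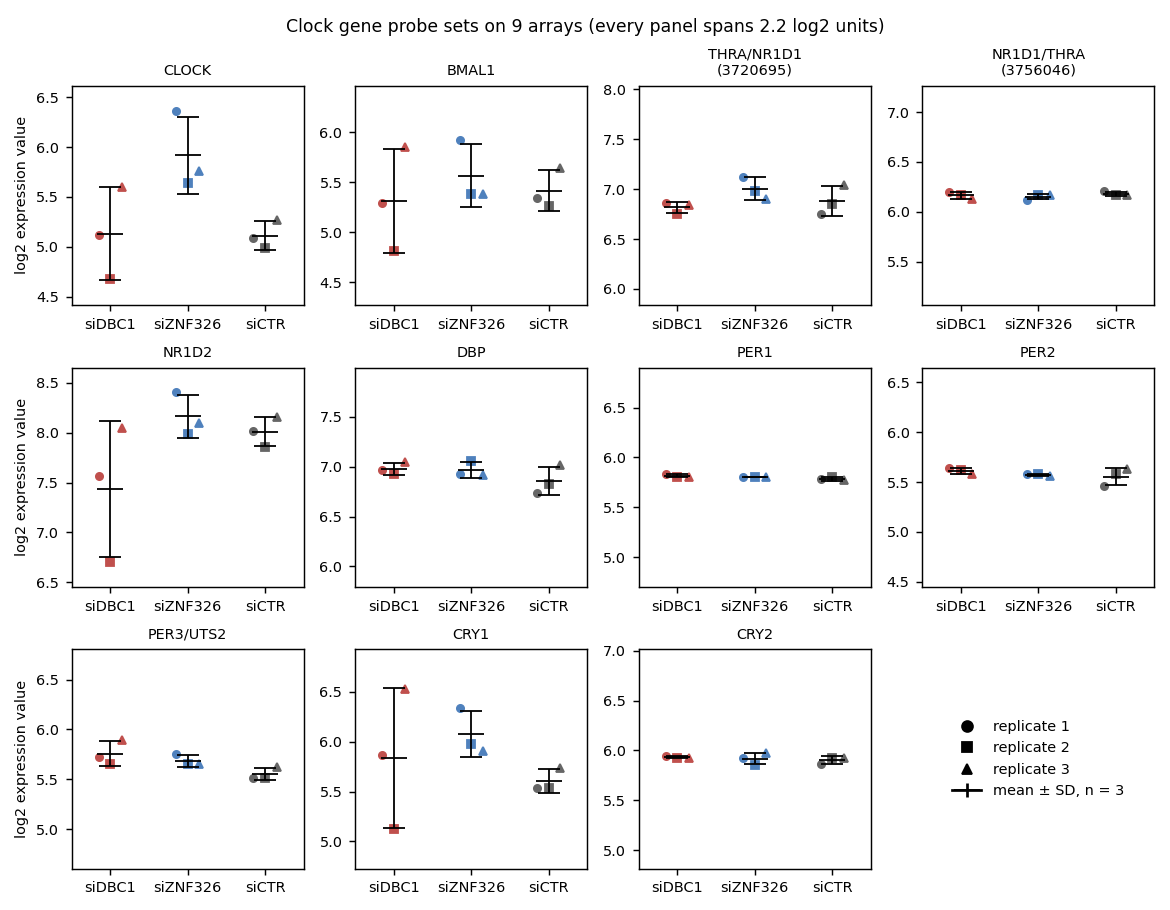
Log2 expression value of each of the 11 clock gene probe sets on the 3 siDBC1, 3 siZNF326 and 3 siCTR arrays. Points are arrays, with the replicate number as shape, and bars are the mean ± SD (n = 3). Every panel spans the same 2.2 log2 units, so CLOCK, BMAL1, CRY1 and NR1D2 spread visibly while PER1, PER2 and CRY2 stay within 0.18.

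The activators CLOCK and BMAL1 did not pass in any comparison. CLOCK, which also carries histone acetyltransferase activity, read 6.36, 5.64 and 5.76 on the siZNF326 arrays and 5.12, 4.67 and 5.60 on the siDBC1 arrays, against 5.09, 4.98 and 5.27 on the siCTR arrays. All 3 siZNF326 values lay above every siDBC1 and siCTR value. The difference of siZNF326 from siCTR was 0.80 (SE 0.26, 95% interval from 0.19 to 1.42, limma adjusted p = 0.422), or 1.75-fold, the largest among the members in that comparison. It was 0.59 without siZNF326 replicate 1 and between 0.74 and 0.95 without any other single array. The difference from siDBC1 was 0.79 (SE 0.26, limma adjusted p = 0.645), and siDBC1 itself differed from siCTR by 0.019 (SE 0.26, limma adjusted p = 0.999). Neither difference of siZNF326 passed.

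BMAL1, the partner of CLOCK and the best known target of REV-ERB repression, read 5.29, 4.81 and 5.85 on the siDBC1 arrays, 5.93, 5.38 and 5.39 on the siZNF326 arrays and 5.34, 5.26 and 5.65 on the siCTR arrays. The groups overlapped in every comparison. Its difference from siCTR was −0.098 (95% interval from −0.73 to 0.54) in siDBC1 and 0.15 (95% interval from −0.49 to 0.79) in siZNF326. The siDBC1 difference was 0.16 without siDBC1 replicate 2 and 0.018 without siCTR replicate 3. The siZNF326 difference was −0.033 without siZNF326 replicate 1, 0.074 after quantile normalization and 0.058 with arrays centred. The interval in siDBC1 reaches from 0.60 to 1.45 times the siCTR level.

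The receptors of the second loop did not pass either. NR1D2 read 7.57, 6.70 and 8.04 on the siDBC1 arrays and 8.41, 7.99 and 8.10 on the siZNF326 arrays, against 8.02, 7.86 and 8.16 on the siCTR arrays. Replicate 2 of siDBC1 was the lowest of the 9 arrays, and replicate 3 lay inside the siCTR range. The siDBC1 difference was −0.57 (SE 0.31, 95% interval from −1.29 to 0.14, limma adjusted p = 0.911), the largest in size among the members in that comparison, and it shrank to −0.20 without siDBC1 replicate 2 and reached −0.87 without siDBC1 replicate 3. In siZNF326 the difference was 0.73 from siDBC1 (SE 0.31, limma adjusted p = 0.681), which was 0.36 without siDBC1 replicate 2, and 0.15 from siCTR (SE 0.31, limma adjusted p = 0.899), which was 0.034 after quantile normalization.

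NR1D1, the receptor that binds CCAR2 protein, is named only on probe sets that also name THRA. The first shared probe set (3720695) gave 6.86, 6.75 and 6.84 in siDBC1, 7.13, 6.99 and 6.91 in siZNF326 and 6.75, 6.85 and 7.04 in siCTR. Its siZNF326 values all lay above its siDBC1 values, by 0.19 on average (SE 0.10, limma adjusted p = 0.735), which was 0.051 after quantile normalization and 0.11 with arrays centred. The second (3756046) stayed between 6.12 and 6.21 on all 9 arrays. In siDBC1 their differences from siCTR were −0.065 (95% interval from −0.30 to 0.17) and −0.014 (95% interval from −0.16 to 0.13). Which of the 2 genes each signal comes from cannot be told from the symbols, so whether either interval bounds NR1D1 itself is not known. By root mean square difference over the 9 arrays, each taken from its siCTR mean, the profiles nearest to 3720695 among 14424 probe sets with 1 symbol were those of APP (0.045), BCAT2 (0.045) and ZNF664 (0.053). Those nearest to 3756046 were CDH26 (0.015), ACOT12 (0.018) and PSD (0.019).

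**Figure D2:**
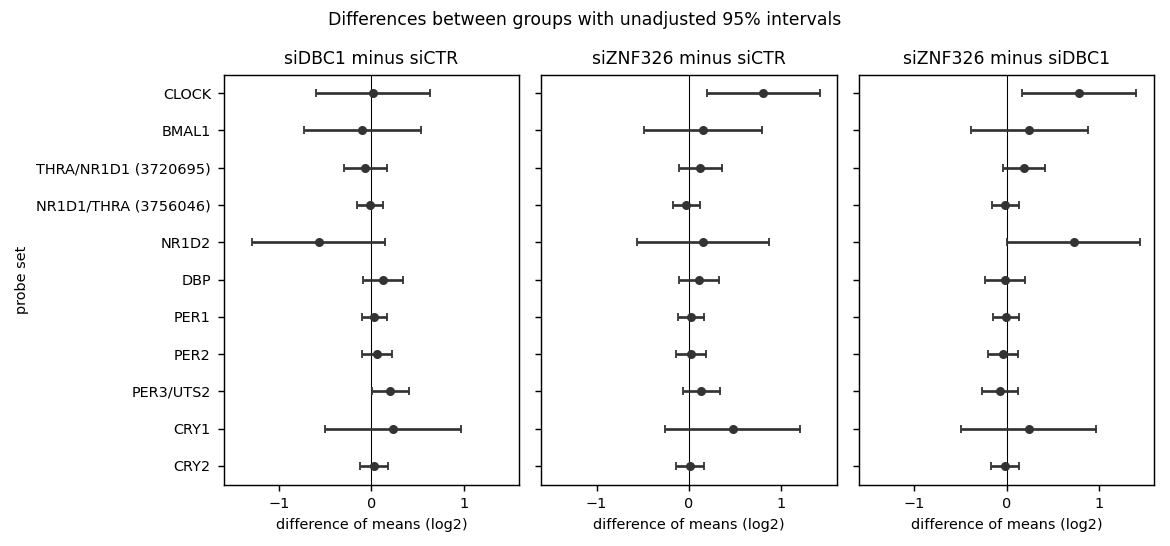
Difference of group means on the log2 scale (points) with unadjusted 95% intervals from the limma fit for each clock gene probe set, in 3 comparisons. The intervals of CLOCK in both siZNF326 comparisons, of PER3/UTS2 in siDBC1 against siCTR and of NR1D2 in siZNF326 against siDBC1 leave out 0, and none of these passed after adjustment over all probe sets.

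Of the CRY repressors, CRY1 spread widely between arrays and CRY2 little. CRY1 read 5.86, 5.13 and 6.52 on the siDBC1 arrays, 6.34, 5.98 and 5.90 on the siZNF326 arrays and 5.53, 5.54 and 5.74 on the siCTR arrays. The siZNF326 arrays lay above all siCTR arrays, with a difference of 0.47 (SE 0.32, limma adjusted p = 0.706), while the siDBC1 arrays held both the lowest and the highest value of all 9. CRY2 stayed between 5.86 and 5.97 and differed from siCTR by 0.027 in siDBC1 and 0.014 in siZNF326.

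The PER genes, whose proteins bring the CRY proteins to the CLOCK and BMAL1 pair, did not pass in any comparison. PER1 read 5.81 on 6 of the 9 arrays, the same number to the last deposited digit, and ranged over 0.065 in all. PER2 ranged over 0.18. PER3/UTS2 read 5.72, 5.65 and 5.89 on the siDBC1 arrays and 5.75, 5.65 and 5.65 on the siZNF326 arrays, against 5.52, 5.51 and 5.62 on the siCTR arrays. The siDBC1 and siZNF326 arrays all lay above siCTR here, with differences of 0.20 (SE 0.086, limma adjusted p = 0.793) in siDBC1 and 0.13 (SE 0.086, limma adjusted p = 0.693) in siZNF326. The siDBC1 difference was 0.14 without siDBC1 replicate 3, and the siZNF326 difference was 0.053 after quantile normalization and 0.043 with arrays centred. The probe set of UTS2 alone (2395123) differed from siCTR by −0.013 in siDBC1 (limma adjusted p = 0.999) and by −0.18 in siZNF326 (limma adjusted p = 0.599). DBP, the D-box activator and an output of the loop, read 6.96, 6.93 and 7.05 in siDBC1, 6.93, 7.06 and 6.91 in siZNF326 and 6.73, 6.83 and 7.01 in siCTR, and differed from siCTR by 0.12 (limma adjusted p = 0.955) in siDBC1 and 0.11 (limma adjusted p = 0.766) in siZNF326. Without siCTR replicate 1 these were 0.058 in siDBC1 and 0.044 in siZNF326, and the siZNF326 difference was −0.033 after quantile normalization.

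Counted by groups that did not overlap, 1 of 11 members (9.09%) was wholly higher in siDBC1 than in siCTR, where 5.18% of all probe sets were. In siZNF326 against siCTR 3 of 11 were wholly higher (CLOCK, CRY1 and PER3/UTS2; 27.3%), where 12.9% of all were, and against siDBC1 2 of 11 (CLOCK and probe set 3720695; 18.2%), where 5.21% of all were. No member was wholly lower in any of the 3 comparisons, where 3.66% of all probe sets were in siDBC1 against siCTR, 5.27% in siZNF326 against siCTR and 4.24% in siZNF326 against siDBC1. CLOCK and CRY1 vary together between arrays, so these counts do not stand for as many separate observations.

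The 4 members with the widest spread shared a pattern across arrays. In siDBC1, replicate 2 was the lowest and replicate 3 the highest array for each of CLOCK, BMAL1, CRY1 and NR1D2, and in siZNF326 replicate 1 was the highest for each. The medians of all probe sets ran the same way: 5.58 in siDBC1 replicate 2, 5.89 in siDBC1 replicate 3 and 5.90 in siZNF326 replicate 1. On these arrays the median deviation of all probe sets from their siCTR means was −0.060, 0.085 and 0.075. It was 0.061 on siCTR replicate 3. CRY1 lay at −0.48 and 0.92 from its siCTR mean in siDBC1 replicates 2 and 3. The SD within groups was 0.36 for CLOCK, 0.37 for BMAL1, 0.42 for NR1D2 and 0.43 for CRY1, at percentiles 76.6 to 84.9 of all probe sets, beside a median of 0.21. It was 0.015 for PER1, 0.040 for CRY2, 0.053 for PER2 and 0.028 for 3756046, all at or below percentile 4.92. The part of the array differences in the group differences was not tested.

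**Figure D3:**
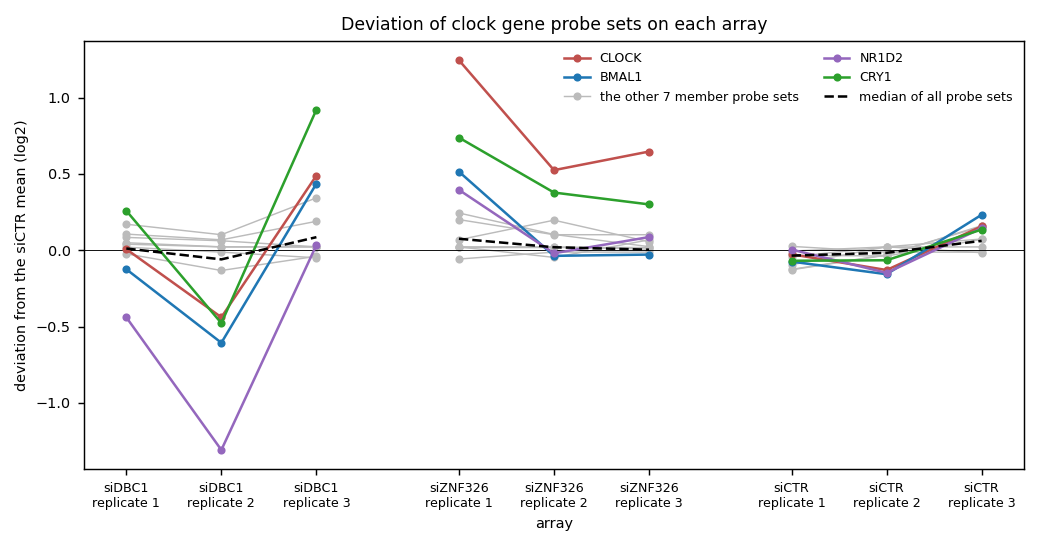
Deviation of each clock gene probe set from its siCTR mean (log2) on each of the 9 arrays. Coloured lines are CLOCK, BMAL1, CRY1 and NR1D2, grey lines the other 7 member probe sets and the dashed line the median deviation of all 22011 probe sets. Lines join the arrays of a group as a guide only. The coloured genes dip together in siDBC1 replicate 2 and lie high in siZNF326 replicate 1. In siDBC1 replicate 3 CLOCK, BMAL1 and CRY1 lie high, while NR1D2 lies at 0.033, inside its siCTR range.

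The flat members repeat values. The value 5.92384 of CRY2 stands on 5 of 9 arrays, 6.16764 of probe set 3756046 on 5 and 5.57684 of PER2 on 4. PER1 has 4 distinct values in 9 arrays, and 3.04% of all probe sets have 4 or fewer. No detection value or probe-level signal was used here, so whether these probe sets respond to their transcripts was not tested, and their narrow intervals are bounds on the deposited values.

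Because the spread was shared, the members were also read against BMAL1 on the same array, a measure chosen after the values were seen and therefore given without a test. A common shift of an array cancels in it. For CLOCK, CRY1 and NR1D2, which vary with BMAL1 between arrays, some groups then stood apart. For the other 7 member probe sets the groups overlapped in every comparison on this measure, and their SD in siDBC1 was 0.40 to 0.54, against 0.010 to 0.12 for the same probe sets alone. It shows unequal change between 2 genes and not which of them changed. CLOCK minus BMAL1 was 0.43, 0.26 and 0.37 on the siZNF326 arrays and −0.17, −0.14 and −0.25 on the siDBC1 arrays, against −0.25, −0.27 and −0.38 on the siCTR arrays. The group difference of siZNF326 from siCTR was 0.66, with SDs of 0.086 and 0.066, compared with SDs of 0.39 and 0.15 for CLOCK alone. The smaller SDs follow from a reference that varies with CLOCK between arrays. On this measure 7.41% of all probe sets were wholly higher in siZNF326 than in siCTR. For a probe set that does not vary with BMAL1, the subtraction adds the spread of BMAL1. Shares over all probe sets, here and below, are therefore not a like background for CLOCK, CRY1 and NR1D2. The siDBC1 arrays lay wholly above siCTR too, by 0.12, where 7.07% of all probe sets did, and siZNF326 lay wholly above siDBC1, by 0.54, where 3.43% did.

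CRY1 minus BMAL1 was 0.57, 0.32 and 0.67 in siDBC1 and 0.41, 0.60 and 0.52 in siZNF326, against 0.19, 0.28 and 0.092 in siCTR. The siDBC1 and siZNF326 arrays all lay above siCTR, by 0.33 and 0.32, where 7.07% and 7.41% of all probe sets did. NR1D2 minus BMAL1 was 2.28, 1.89 and 2.19 in siDBC1 and 2.48, 2.61 and 2.71 in siZNF326, against 2.68, 2.60 and 2.51 in siCTR. The siDBC1 arrays were wholly lower than siCTR, by 0.47, where 2.67% of all probe sets were. The siZNF326 arrays were wholly higher than siDBC1, by 0.48, and differed from siCTR by 0.0041. After quantile normalization the same groups did not overlap for these 3 genes, with differences from siCTR of 0.65 for CLOCK in siZNF326, 0.32 and 0.30 for CRY1 in siDBC1 and siZNF326, and −0.44 for NR1D2 in siDBC1. The absolute position of these differences has no meaning, since probe sets differ in their response.

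**Figure D4:**
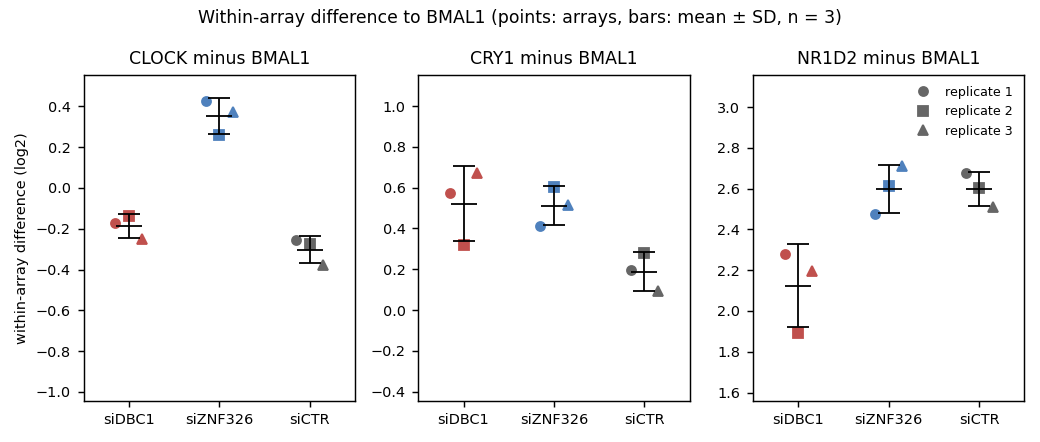
Within-array difference of CLOCK, CRY1 and NR1D2 to BMAL1 (log2) in siDBC1, siZNF326 and siCTR. Points are arrays, bars the mean ± SD (n = 3), and all panels span 1.6 log2 units. CLOCK stands apart in siZNF326, CRY1 is higher in siDBC1 and siZNF326 than in siCTR and NR1D2 is lower in siDBC1.

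The elements of the loop can be seen in the promoter letters of these genes. RefSeq promoter windows (GRCh38.p14, from 250 bases before to 50 after an annotated start) were searched on both strands for the E-box CACGTG, its variant CACGTT, the D-box TTATGTAA and the RORE core ANTAGGTCA. No match of one of these motifs shares its letters with a match of another in the members. All 10 genes had a window, 15 in all. The sites below are shown because they are all the matches in the 4 members with the widest spread and, for contrast, 1 match each in PER1 and PER3. Capitals mark the match, and all are written on the strand of the gene.
CLOCK variant E-box, chr4:55546102-55546131, minus strand: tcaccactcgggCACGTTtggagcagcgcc
CRY1 variant E-box, chr12:107093621-107093650, minus strand: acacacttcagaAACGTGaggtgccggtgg
NR1D2 D-box, chr3:23945916-23945945, plus strand: gtgacgcggcaTTACATAAtgggcgctgag
NR1D2 first E-box, chr3:23945954-23945983, plus strand: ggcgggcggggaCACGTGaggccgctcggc
NR1D2 second E-box, chr3:23946004-23946033, plus strand: gggccgcagggaCACGTGggggcgggggcg
BMAL1 RORE, chr11:13277808-13277837, plus strand: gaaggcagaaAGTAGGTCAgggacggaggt
PER1 E-box, chr17:8152560-8152589, minus strand: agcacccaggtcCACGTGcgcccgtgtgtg
PER3 D-box, chr1:7784103-7784132, plus strand: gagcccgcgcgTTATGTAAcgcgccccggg

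The E-box was matched in NR1D2 and PER1 among the members and in 7.26% of all 35116 windows. Its variant was matched in CLOCK, CRY1, CRY2, NR1D1 and PER2 and in 5.34% of all windows. The D-box was matched in NR1D2 and PER3 and in 0.886% of all, and the RORE core in BMAL1 alone of the members and in 0.49% of all. The RORE core was matched in 1 member, BMAL1, and not in CLOCK, CRY1 or NR1D2, which varied between arrays together with it. The E-box, its variant and the D-box were each matched in members outside these 4 too. The flat PER1 held the same E-box as NR1D2. A relation of motifs to the spread between arrays was not tested. A match describes the letters and does not show that a factor binds there.

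Other genes of the clock network were read from 3 lists. Of 12 related transcription factors 11 were measured, of 16 kinases, ubiquitin ligases and cofactors that act on clock proteins 13, and of 13 outputs of the clock or of REV-ERB alpha 12. None passed in limma in either direction in any of the 3 comparisons. Their median differences from siCTR in siDBC1 were 0.017 for related factors, −0.055 for the modifiers and −0.042 for the outputs, and in siZNF326 0.16, 0.16 and 0.029. Over all probe sets the medians were 0.014 in siDBC1 and 0.032 in siZNF326. The list medians were not recomputed with arrays centred or after quantile normalization.

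Among the related factors, BHLHE40 (DEC1), a repressor at E-boxes, read 7.76, 7.45 and 7.71 on the siZNF326 arrays, against 7.12, 7.02 and 7.28 on the siCTR arrays, a difference of 0.50 (SE 0.16, limma adjusted p = 0.408). It was 0.69 above siDBC1 (SE 0.16, limma adjusted p = 0.435). RORA, the activator that competes with the REV-ERB receptors for ROREs, differed from siCTR by 0.35 (SE 0.12, limma adjusted p = 0.457) in siZNF326 and from siDBC1 by 0.45 (SE 0.12, limma adjusted p = 0.593). NPAS2, a paralog of CLOCK, differed from siCTR by 0.086 (SE 0.061, limma adjusted p = 0.721) in siZNF326. For these 3 of the 11 related factors (27.3%) all siZNF326 arrays lay above all arrays of both other groups. Of all probe sets, 12.9% lay wholly above siCTR and 5.21% wholly above siDBC1. These 3 were named because their groups did not overlap. The NPAS2 value 5.6579 stands on 3 arrays.

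Among the modifiers, HDAC3, the deacetylase that REV-ERB receptors bring to DNA, came closest to the threshold. It read 8.90, 8.71 and 8.87 on the siZNF326 arrays and 8.39, 8.06 and 8.56 on the siDBC1 arrays, against 8.11, 8.07 and 8.14 on the siCTR arrays. The siZNF326 arrays lay above all others, by 0.72 from siCTR (SE 0.13, limma adjusted p = 0.109) and by 0.49 from siDBC1 (SE 0.13, limma adjusted p = 0.550). GSK3B, a kinase of clock proteins, differed by 0.84 (SE 0.27, limma adjusted p = 0.411) and the splicing factor and PER partner SFPQ by 0.41 (SE 0.22, limma adjusted p = 0.652) in siZNF326 against siCTR. CSNK1D, the casein kinase that marks PER proteins for decay, was the modifier wholly lower in siDBC1 than in siCTR, at −0.42 (SE 0.17, limma adjusted p = 0.790). PRKAA1, a subunit of the energy sensor AMPK, was 0.82 higher in siZNF326 than in siDBC1 (SE 0.25, limma adjusted p = 0.624). In siZNF326, 5 of the 13 modifier probe sets (38.5%) lay wholly above siCTR, where 12.9% of all probe sets did. Wholly above siDBC1 lay 2 of 13 (15.4%), where 5.21% of all did. In siDBC1, 1 of 13 lay wholly below siCTR, where 3.66% of all did.

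Among the outputs, KLF15, a metabolic transcription factor, lay below siCTR on every siDBC1 and siZNF326 array. It read 5.55, 5.12 and 5.12 in siDBC1 and 5.17, 5.35 and 5.16 in siZNF326, against 5.66, 5.97 and 5.98 in siCTR. The differences were −0.61 (SE 0.15, limma adjusted p = 0.434) and −0.64 (SE 0.15, limma adjusted p = 0.238), set against the same siCTR arrays. NAMPT, the enzyme that renews NAD and so feeds SIRT1, was wholly lower in siDBC1 at −0.38 (SE 0.24, limma adjusted p = 0.931). KLF10 at 0.48 (limma adjusted p = 0.599) and ALAS1, the first enzyme of haem synthesis, at 0.20 (limma adjusted p = 0.731) were wholly higher in siZNF326 than in siCTR. LPIN1 was wholly higher in siZNF326 than in siCTR by 0.20 (limma adjusted p = 0.743) and than in siDBC1 by 0.32 (limma adjusted p = 0.720). Of the 13 output probe sets, 3 (23.1%) were wholly higher in siZNF326 than in siCTR, where 12.9% of all probe sets were. Wholly lower there was 1 of 13, where 5.27% of all were. In siZNF326 against siDBC1, 1 of 13 (7.69%) was wholly higher, where 5.21% of all were. In siDBC1 against siCTR, 2 of 13 were wholly lower, where 3.66% of all were.

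**Figure D5:**
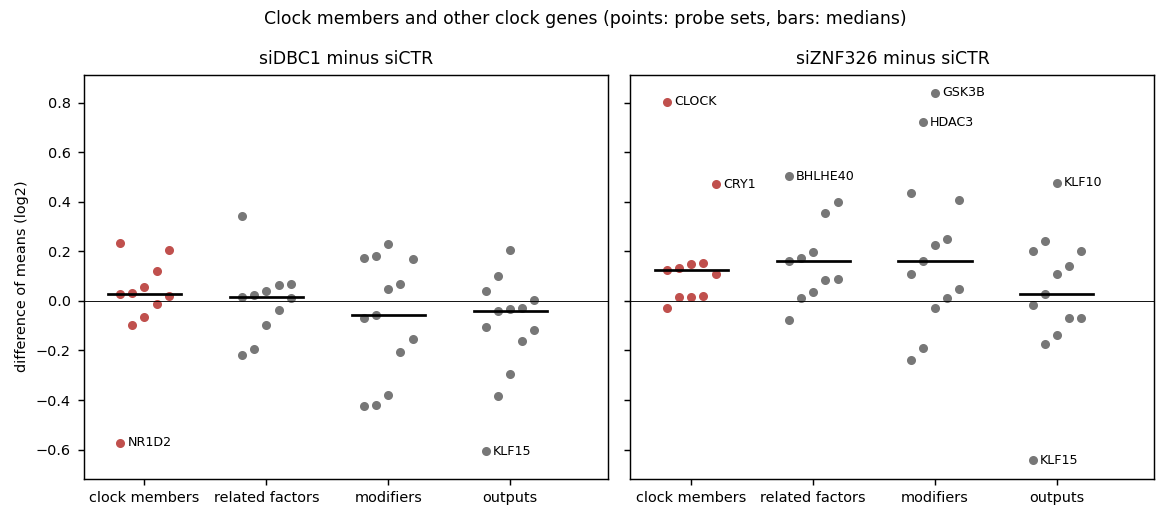
Difference from siCTR (log2) of the clock members and of 3 lists of other clock genes, in siDBC1 and in siZNF326. Each point is a probe set, bars are medians, and genes further than 0.45 from 0 are named. No point passed the adjusted test.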

How the data were processed

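The authors deposited 1 log2 expression value per probe set and array, made with RMA, which corrects background, normalizes the arrays together and summarises the probes of a set, and refer to build hg18, per the submitters' processing notes. The software version and filters are not given in the sources used here. Probe sets were named from the platform annotation, in which 14432 of 22011 carry 1 symbol, 2408 several and 5171 none.

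A linear model of the 3 groups was fitted to all probe sets of the 9 arrays with limma 3.58.1 in R 4.3.3, unfiltered. The moderated test was two-sided, with Benjamini-Hochberg adjustment over all probe sets of a comparison and a call at an adjusted p below 0.05. Means are over 3 arrays with SD. The design text says that the arrays of a group come from independent experiments. The fit was tested on simulated data. The number of arrays limits the precision.

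The members, lists and tests were chosen with earlier results of these data known. Named genes are all members, both siRNA targets and, per list and comparison, up to 3 genes with the smallest p among those whose groups did not overlap. Alternatives were a replicate block, quantile normalization, median centring, a fit of the 2 groups compared, a filter on low values, an intensity trend and omission of each array. Levels of different probe sets were not compared, except as percentiles for the marker check and as within-array differences to BMAL1.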

Additional observations from a re-analysis of the deposited data

How the results depend on the processing

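No member was called under any alternative: of 495 recomputed member differences 0 passed. Of these, 231 were fixed by construction, since a block, the 2-group fit, the filter, the trend or omission of an array of the third group leaves a difference as it is. Of the other 264, 235 kept their direction, 28 turned and 1 (PER1, siZNF326 against siDBC1, without siDBC1 replicate 1) came to 0. In siDBC1 against siCTR, siZNF326 against siCTR and siZNF326 against siDBC1, the limma fit called 8, 33 and 2 of all probe sets. These counts were 0, 1 and 0 with a replicate block (1360, 2007 and 1769 at an unadjusted p under 0.05), 69, 196 and 28 after quantile normalization, 46, 119 and 9 with arrays centred, and 0, 5 and 0 with only the 2 groups compared (1100, 2844 and 1118 at an unadjusted p under 0.05). The first was 4 with an intensity trend. Without 1 array they ran from 0 to 4, from 1 to 64 (64 without siDBC1 replicate 2) and from 0 to 1. With the block the limma adjusted p of CCAR2 was 0.103 in siDBC1 against siCTR. Correlations of same-numbered deviations ran from −0.296 to 0.395, and not every array correlated best with its own number. Differently numbered arrays reached −0.567 (siDBC1 replicate 2 with siZNF326 replicate 1) and 0.61 (siDBC1 replicate 3 with siZNF326 replicate 1). Whether same-numbered arrays were paired therefore cannot be decided from these correlations. The causes of the shifts between settings were not tested.

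The members' median was −0.026 in siZNF326 against siCTR after quantile normalization, in place of 0.12. In siZNF326 against siDBC1 it was −0.0091, and −0.096 after quantile normalization, −0.086 with arrays centred and 0.11 over probe sets with 1 symbol. Small differences changed sign. After quantile normalization CLOCK was at −0.0027 in siDBC1 against siCTR, and in siZNF326 against siCTR probe set 3720695 was at −0.026, DBP at −0.033, PER1 at −0.071, PER2 at −0.056 and CRY2 at −0.081. With arrays centred PER1 was at −0.070, PER2 at −0.075 and CRY2 at −0.078 there. CRY1 relative to BMAL1 was at −0.010 in siZNF326 against siDBC1.

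Without 1 array, differences in siDBC1 against siCTR ran from −0.22 to 0.25 for CLOCK, −0.37 to 0.16 for BMAL1, −0.13 to 0.015 for 3720695, −0.031 to 0.0036 for 3756046 and −0.11 to 0.59 for CRY1. In siZNF326 against siCTR they ran from −0.033 to 0.27 for BMAL1, −0.031 to 0.054 for PER2 and −0.013 to 0.045 for CRY2. In siZNF326 against siDBC1 they ran from −0.0059 to 0.52 for BMAL1, −0.031 to 0.0034 for 3756046, −0.059 to 0.020 for DBP, −0.12 to 0.58 for CRY1 and −0.040 to 0.017 for CRY2.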
